A study of Mus musculus with 9 samples.

Results

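The neurotrophins and their receptors were examined in neurospheres, cultured cells and tissue of the adult mouse auditory nerve. The set held 7 genes, chosen by name: the ligand genes Bdnf, Ntf3 and Ntf5, the Trk receptor genes Ntrk2 and Ntrk3, the p75 receptor gene Ngfr, and Sort1, which encodes the sorting receptor sortilin. Probe sets (groups of short oligonucleotides on the array that read a transcript together) named 6 of the 7 genes, with 25 of the 45037 probe sets that were not controls. Bdnf had 2 probe sets, Ntf5 1, Ngfr 3, Ntrk2 8, Ntrk3 8 and Sort1 3. Ntf3 was not analysed here.

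RNA had been hybridized to expression arrays from 3 samples of neurospheres, 3 of cultured nerve cells and 3 of dissected nerve. All came from CBA/CaJ mice of both sexes, aged 8 to 12 weeks. The cultured cells were dissociated nerve grown with 10% serum until confluent, in 5 to 7 days, and the neurospheres formed from such cells during 12 further days in serum-free medium with EGF (20 ng/ml), FGF (10 ng/ml) and heparin (2 µg/ml). Whether replicates were separate animals or cultures is not stated in the labels. The p-values thus cover the spread among these samples alone. Xist, which is transcribed from the inactive X chromosome of females, read 5.85, 12.80 and 8.97 (log2) on the neurosphere arrays, 12.73, 12.69 and 12.80 on the cultured cell arrays and 12.04, 6.25 and 11.61 on the tissue arrays. Neurosphere and tissue arrays therefore did not all carry RNA of the same mice. The cultured cell arrays were all high in Xist, so Xist cannot tell whether they carried RNA of the same or of different mice. Whether the spread among the cultured cell arrays is technical was not tested. The mix of sexes thus differed between arrays and groups, and its part in the results was not tested.

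Neurotrophins are small secreted growth factors that keep sensory neurons alive and guide their axons. BDNF and neurotrophin-4 signal through TrkB, the product of Ntrk2, and neurotrophin-3 mainly through TrkC, the product of Ntrk3. Both receptors exist as full-length forms with a tyrosine kinase domain and as truncated forms without it, and truncated TrkB is abundant in glia. The p75 receptor binds all neurotrophins, and with sortilin it also binds their uncleaved precursors. In the cochlea, spiral ganglion neurons carry TrkB and TrkC and depend on BDNF and neurotrophin-3 from the organ of Corti during development.

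Values are RMA signals on a log2 scale, on which a difference of 1 is a doubling. A probe set was called at a fold change over 1.5 and a p under 0.05 from limma, after Benjamini-Hochberg adjustment across the 45037 probe sets. Levels of different probe sets are not read as relative amounts of transcript, because each binds its transcript with its own strength. Percentiles and the words dim and brightest rank the signal alone. Which transcript form each probe set reads is not given in the sources used here.

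The regions around transcription starts are shown for the genes with the largest changes, Bdnf and Ntrk2. RefSeq promoter windows (build GRCm38.p6, 250 bases before to 50 after a start) were at hand for 3 of the 6 measured genes, with 7 for Bdnf, 1 for Ngfr and 1 for Ntrk2. Bdnf has many alternative first exons, of which one start is known to be driven by neuronal activity through a cAMP response element. Capitals mark matches to the motifs searched on both strands. The first window below holds a half-site of that element. The second holds a match to a loose AP-1 motif that allowed any middle base. Each of these was found in 1 of the 7 Bdnf windows. The remaining Bdnf windows and the Ngfr window, not shown, and the Ntrk2 window held no match.
Bdnf chr2:109692186-109692485 (+): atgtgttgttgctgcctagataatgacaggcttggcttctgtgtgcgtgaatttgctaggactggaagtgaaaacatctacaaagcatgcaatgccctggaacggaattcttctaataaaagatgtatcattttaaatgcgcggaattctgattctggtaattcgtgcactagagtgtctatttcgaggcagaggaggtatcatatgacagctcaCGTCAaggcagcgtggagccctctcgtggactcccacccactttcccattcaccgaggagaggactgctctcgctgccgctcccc
Bdnf chr2:109676782-109677081 (+): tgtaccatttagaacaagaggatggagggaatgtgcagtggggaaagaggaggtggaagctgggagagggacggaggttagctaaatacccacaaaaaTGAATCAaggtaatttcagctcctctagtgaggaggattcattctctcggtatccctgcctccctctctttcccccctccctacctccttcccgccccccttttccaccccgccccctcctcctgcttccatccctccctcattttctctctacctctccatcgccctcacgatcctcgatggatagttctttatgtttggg
Ntrk2 chr13:58806319-58806618 (+): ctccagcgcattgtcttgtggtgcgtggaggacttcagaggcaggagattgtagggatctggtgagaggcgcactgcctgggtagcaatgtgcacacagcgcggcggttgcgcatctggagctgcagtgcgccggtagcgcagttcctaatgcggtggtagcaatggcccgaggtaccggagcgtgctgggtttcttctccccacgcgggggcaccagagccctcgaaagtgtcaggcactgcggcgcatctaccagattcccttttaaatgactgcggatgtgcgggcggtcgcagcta

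The half-site TGACG, read on the opposite strand as CGTCA, began at base 216 of its window and was also found in 20.8% of 32851 RefSeq promoter windows. The match TGAATCA to the loose AP-1 motif began at base 99 of its window. That motif, TGANTCA with N for any base, occurred in 7.81% of all windows. The full cAMP response element TGACGTCA (1.79% of all windows) and the EGR motif GCGNGGGCG (5.55%) were not found in any of the 9 windows, and the half-site lies within the full element. A match is a string of letters and not evidence of binding.

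The array medians lay between 6.15 and 6.27 (log2), and arrays of 1 group correlated at r = 0.992 to 0.997 over all probe sets. Cell type markers differed between the cultures and nerve, and some also differed between the cultures. The mean level of 10 neuronal marker genes was 6.50 to 6.63 on the neurosphere arrays, 6.10 to 6.32 on the cultured cell arrays and 11.06 to 11.37 on the tissue arrays. For 7 Schwann cell and myelin genes it was 7.84 to 8.16, 8.03 to 8.17 and 11.16 to 11.25 in the same order, for 6 astrocyte genes 7.10 to 7.31, 6.82 to 6.98 and 10.38 to 10.62, for 7 fibroblast genes 12.47 to 12.57, 12.27 to 12.51 and 10.97 to 11.32, and for 4 genes of dividing cells 9.21 to 9.72, 11.14 to 11.28 and 4.18 to 4.39. In the same order, 7 smooth muscle and pericyte genes averaged 7.82 to 8.23, 9.52 to 9.77 and 8.60 to 8.91. The values for 4 bone and cartilage genes were 7.16 to 7.90, 9.14 to 9.69 and 8.68 to 9.04. Those for 6 oligodendrocyte genes were 4.46 to 4.65, 4.41 to 4.58 and 8.81 to 9.07. Endothelial, macrophage, cochlear epithelium and melanocyte lists were also highest in tissue. In bulk RNA, fewer cells of a type and less RNA per cell cannot be told apart. The actin control read higher with its 3' than with its 5' probe set, by 0.70 ± 0.15 in neurospheres, 0.36 ± 0.04 in cultured cells and 2.71 ± 0.35 in tissue (log2, SD, n = 3). For Gapdh the gap was 0.41, 0.19 and 1.98, and for the transferrin receptor control it was 1.12, 1.34 and 1.26. The part of cell composition and of RNA integrity in the results on these genes was not tested.

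In neurospheres against tissue, 16 of the 25 probe sets were called, 7 higher and 9 lower, beside 39.7% of all probe sets (21.2% higher and 18.5% lower). In cultured cells against tissue 16 were called, 6 higher and 10 lower, beside 40.5% of all (21.7% and 18.9%). In neurospheres against cultured cells 12 were called, 6 in each direction, beside 17.1% of all (7.44% higher and 9.62% lower). The median log2 fold change of the 25 was -0.02, -0.22 and 0.15 in the 3 comparisons, and that of all probe sets was 0.06, 0.02 and 0.03. The groups did not overlap on 17, 20 and 18 of the 25 probe sets in these comparisons, beside 64.4%, 65.2% and 45.1% of all. Both comparisons with tissue use the same tissue arrays, and every pair of comparisons shares 1 group.

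**Figure D1:**
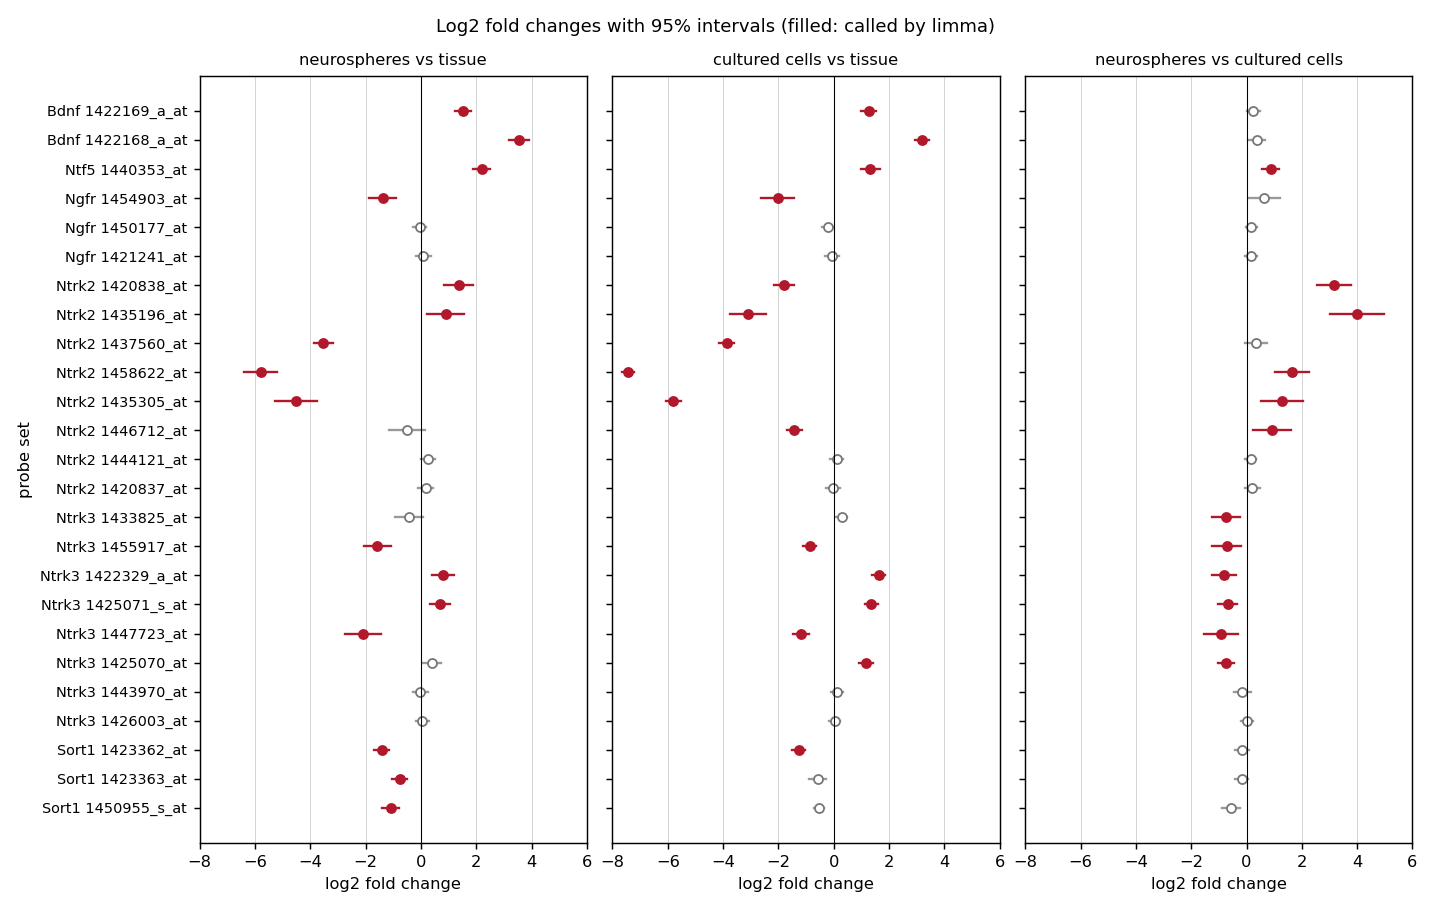
Log2 fold changes (x axis) of the 25 probe sets (y axis) for neurospheres over tissue (left), cultured cells over tissue (middle) and neurospheres over cultured cells (right), with 95% intervals as lines and filled points where limma made a call. Bdnf and Ntf5 lie right of 0 in all 3 panels, Ntrk2 spreads from -5.80 to 1.37 in the left panel, and the called Ntrk3 probe sets of the right panel all lie left of 0.

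The ligand genes Bdnf and Ntf5 were higher in both cultures than in nerve. Bdnf, which encodes brain-derived neurotrophic factor, read at probe set 1422168_a_at 9.33, 8.82 and 8.89 on the neurosphere arrays, 8.61, 8.72 and 8.62 on the cultured cell arrays and 5.68, 5.28 and 5.43 on the tissue arrays. Every array of either culture lay above every tissue array, with no overlap. Bdnf rose 11.7-fold in neurospheres (log2 fold change 3.55, SE 0.16, adjusted p = 1.44e-07) and 9.11-fold in cultured cells (3.19, SE 0.11, adjusted p = 2.81e-09). Its tissue mean of 5.46 was at the 38.8th percentile of all probe sets, so background may limit the size of these rises. Between the cultures the difference was 0.36 (95% interval 0.05 to 0.67, adjusted p = 0.0785) and was not called, although the neurosphere arrays all lay above the cultured cell arrays.

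The other Bdnf probe set, 1422169_a_at, was at 8.44, 8.31 and 8.44 in neurospheres, 8.10, 8.05 and 8.28 in cultured cells and 7.12, 6.81 and 6.71 in tissue. It rose in the same comparisons by less, 2.86-fold in neurospheres (1.52, SE 0.12, adjusted p = 6.03e-06) and 2.41-fold in cultured cells (1.27, SE 0.12, adjusted p = 5.52e-06). The gap between the 2 probe sets, taken within each array, differed among the 3 groups (exact permutation test over 9 arrays, p = 0.0214, adjusted p = 0.0389 over all 25762 probe sets of genes with several). Such a disagreement was called for 66.5% of those probe sets.

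Ntf5, now named Ntf4, encodes neurotrophin-4, the other ligand of TrkB. Its single probe set, 1440353_at, was at 6.71, 6.63 and 6.44 on the neurosphere arrays, 5.74, 5.96 and 5.47 on the cultured cell arrays and 4.59, 4.12 and 4.46 on the tissue arrays. The 3 groups stood in separate steps that did not overlap. Ntf5 rose 4.59-fold in neurospheres against tissue (2.20, SE 0.14, adjusted p = 1.20e-06) and 2.51-fold in cultured cells against tissue (1.33, SE 0.15, adjusted p = 2.07e-05). It was also 1.83-fold higher in neurospheres than in cultured cells (0.87, SE 0.14, adjusted p = 0.00152). This probe set was dim, with a mean over the 9 arrays below 5.58, the level under which the dimmest 40% of probe sets lay.

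**Figure D2:**
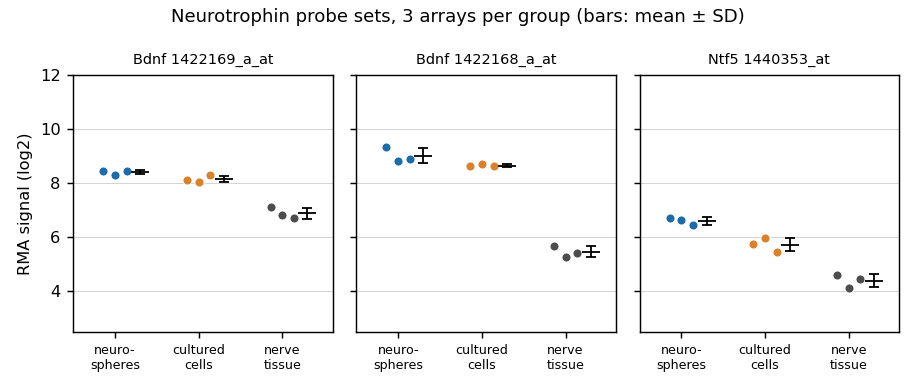
RMA signal (y axis, log2) of the 2 Bdnf probe sets and the Ntf5 probe set on the 3 arrays of neurospheres, cultured cells and nerve tissue (x axis), with bars for the mean ± SD. Bdnf 1422168_a_at sits between 5.28 and 5.68 in tissue and above 8.6 in both cultures, and Ntf5 forms 3 separate steps.

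Ntrk2, the gene of the TrkB receptor, moved in opposite directions depending on the probe set. The brightest probe set, 1420838_at, was at 10.15, 10.94 and 11.19 in neurospheres, 7.37, 7.40 and 8.03 in cultured cells and 9.31, 9.49 and 9.38 in tissue, so that tissue lay between the cultures without overlap. It rose 2.58-fold in neurospheres against tissue (1.37, SE 0.23, adjusted p = 0.000800), fell in cultured cells against tissue (-1.79, SE 0.16, adjusted p = 3.52e-06) and was 8.94-fold higher in neurospheres than in cultured cells (3.16, SE 0.27, adjusted p = 5.47e-05).

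Ntrk2 probe set 1435196_at followed the same order, at 9.44, 10.73 and 10.66 in neurospheres, 5.71, 6.003 and 7.15 in cultured cells and 9.35, 9.47 and 9.34 in tissue. It was 15.9-fold higher in neurospheres than in cultured cells (3.99, SE 0.42, adjusted p = 0.000174) and lower in cultured cells than in tissue (-3.10, SE 0.29, adjusted p = 4.57e-06). Its difference between neurospheres and tissue was smaller, 0.89 (SE 0.30, adjusted p = 0.0295), and neurosphere array 1 lay within the tissue range. Without that array it was 1.31 (adjusted p = 1.00e-05), and without any other single array it was 0.66 to 0.93 and not called (adjusted p = 0.0612 to 0.0999).

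Another 3 Ntrk2 probe sets were high in nerve and low in both cultures. Probe set 1458622_at was at 4.03, 4.98 and 5.22 in neurospheres, 3.08, 3.03 and 3.21 in cultured cells and 10.57, 10.55 and 10.49 in tissue. It fell by 5.80 on the log2 scale in neurospheres (SE 0.26, adjusted p = 1.53e-07) and fell by 7.43 in cultured cells (SE 0.092, adjusted p = 1.59e-11), where its level was at the 4.86th percentile of all probe sets and below the 2 Ntrk2 probe sets that were dim on all arrays. Signal this low may be background, so the size of that fall is uncertain. Between the cultures it was higher in neurospheres by 1.64 (SE 0.27, adjusted p = 0.00177), with the same limit.

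Ntrk2 probe set 1435305_at was at 4.07, 5.44 and 5.50 in neurospheres, 3.84, 3.67 and 3.64 in cultured cells and 9.28, 9.68 and 9.58 in tissue. It fell by 4.51 in neurospheres (adjusted p = 3.89e-06) and fell by 5.80 in cultured cells (adjusted p = 7.78e-11), where it was at the 13.0th percentile and may likewise have read background. It was higher in neurospheres than in cultured cells by 1.29 (adjusted p = 0.0184), and leaving out neurosphere array 2 or 3 or cultured cell array 2 or 3 ended that call (1.04 to 1.27, adjusted p = 0.0564 to 0.0650).

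Ntrk2 probe set 1437560_at was at 6.18, 6.54 and 6.77 in neurospheres, 6.40, 6.15 and 5.91 in cultured cells and 10.11, 9.94 and 10.02 in tissue, and the cultures overlapped. It fell by 3.52 in neurospheres (adjusted p = 9.44e-08) and fell by 3.87 in cultured cells (adjusted p = 1.34e-09). The cultures differed by 0.35 (95% interval -0.04 to 0.74, adjusted p = 0.166).

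The dimmer Ntrk2 probe set 1446712_at was at 5.01, 5.86 and 6.42 in neurospheres, 4.99, 4.60 and 4.93 in cultured cells and 6.14, 6.31 and 6.33 in tissue. It fell in cultured cells against tissue (-1.42, SE 0.12, adjusted p = 2.01e-06), was not called in neurospheres against tissue (-0.50, adjusted p = 0.179), and was higher in neurospheres than in cultured cells by 0.92 (adjusted p = 0.0485). The last call was lost without any 1 array other than neurosphere array 1 (0.59 to 0.997, adjusted p = 0.0870 to 0.158). Without neurosphere array 3 the difference from tissue was called, at -0.83 (adjusted p = 0.0143). The remaining 2 probe sets, 1444121_at and 1420837_at, stayed between 3.25 and 3.82 on all arrays and were not called.

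**Figure D3:**
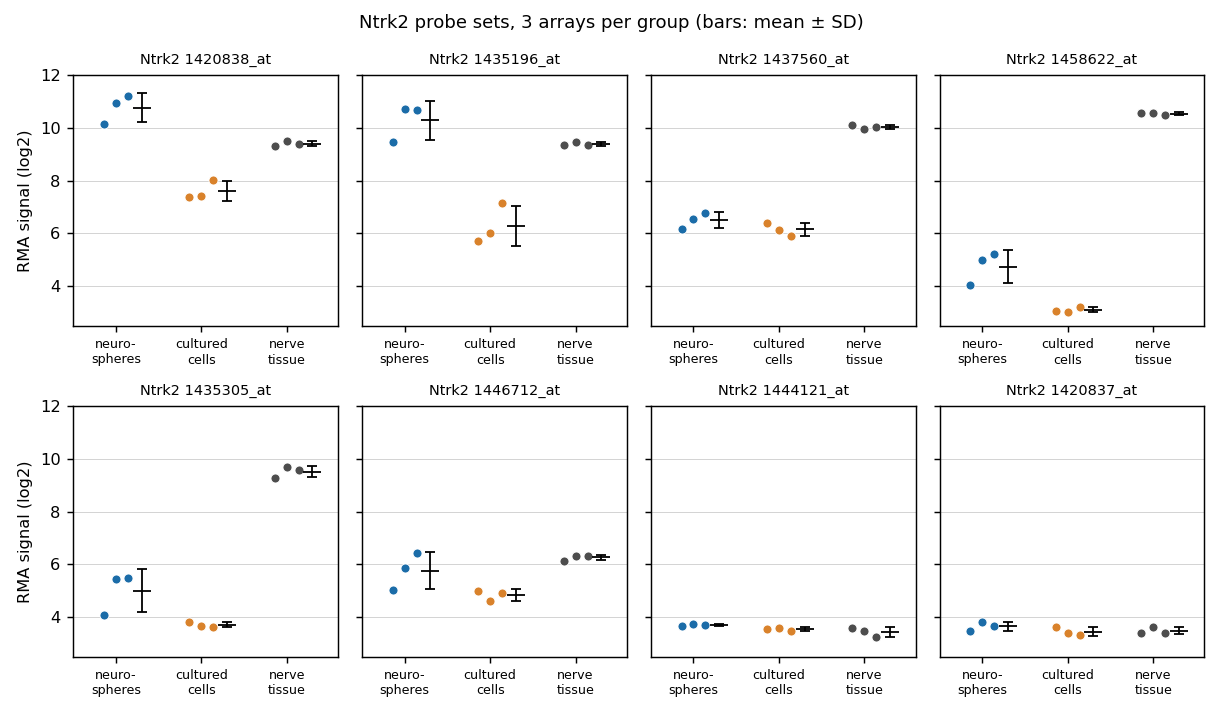
RMA signal (y axis, log2) of the 8 Ntrk2 probe sets on the 3 arrays of neurospheres, cultured cells and nerve tissue (x axis), with bars for the mean ± SD. In 1420838_at and 1435196_at the neurospheres average 10.76 and 10.28, above tissue, while in 1437560_at, 1458622_at and 1435305_at tissue stands at 9.28 or more and both cultures at 6.77 or less.

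Whether each Ntrk2 probe set followed the others over the groups was tested on differences taken within each array, which a shift of a whole array does not move. The difference of 1420838_at from the mean of the other 7 averaged 5.10 in neurospheres, 3.16 in cultured cells and 1.87 in tissue (exact permutation test, p = 0.00357, the smallest that 1680 arrangements allow, adjusted p = 0.0142). For 1458622_at it averaged -1.78, -1.98 and 3.18 in the same order (exact permutation test, p = 0.00714, adjusted p = 0.0208). All 8 Ntrk2 probe sets passed this test, and 20 of the 24 tested in the gene set did, beside 66.5% of all 25762. The dim and flat 1444121_at and 1420837_at passed too (exact permutation test, p = 0.00357 for each), because the probe sets they were set against moved. A pass thus does not show opposite directions, and the 8 results share the same values. With 1 probe set to represent the gene, the direction in neurospheres against tissue depended on the choice, 1.37 for the brightest (adjusted p = 0.000826) and -1.46 for the mean of the 8 (adjusted p = 0.000256).

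The genes with the nearest profile over the 9 arrays also differed among the Ntrk2 probe sets. Likeness was the root mean square difference of the log2 values after each profile's own mean was removed. Nearest to 1420838_at were Ccdc3 (0.29), Gas7 (0.29) and Serinc5 (0.30). The search was extended to the other Ntrk2 probe sets after their values had been seen. Nearest to 1435196_at were Chl1 (0.42), which encodes a neural cell adhesion molecule, Fgl2 (0.55) and Crispld2 (0.57). Nearest to 1458622_at were Nefm (0.40), the medium neurofilament subunit of axons, Nap1l5 (0.53) and the synaptic vesicle gene Vamp1 (0.54), and nearest to 1435305_at were Rab6b (0.30), Nap1l5 (0.37) and Efhd1 (0.40). For 1437560_at they were Vwc2 (0.16), the presynaptic gene Rims1 (0.16) and the immunoglobulin gene Ighm (0.17), and for 1446712_at Crebrf (0.24), Rragd (0.25) and Fam124a (0.25). A near profile does not name a cell type. All 6 oligodendrocyte and 5 of 6 astrocyte markers also fell in each culture against tissue, beside 18.5% and 18.9% of all probe sets.

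Ntrk3, the gene of the TrkC receptor, was lower in neurospheres than in cultured cells on most of its probe sets. The brightest, 1433825_at, was at 8.31, 9.34 and 8.69 in neurospheres, 9.58, 9.47 and 9.49 in cultured cells and 9.31, 9.20 and 9.16 in tissue. Cultured cells were highest, by less than 1 log2 unit, and neurospheres overlapped with tissue. The difference was -0.73 in neurospheres against cultured cells (SE 0.22, adjusted p = 0.0362), -0.44 in neurospheres against tissue (adjusted p = 0.125) and 0.29 in cultured cells against tissue (adjusted p = 0.0182, under the fold threshold).

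In neurospheres against tissue 4 of the 8 Ntrk3 probe sets were called, 2 in each direction, beside 39.7% of all probe sets (21.2% higher and 18.5% lower). Probe set 1455917_at was at 6.80, 7.80 and 7.23 in neurospheres, 8.16, 7.82 and 8.01 in cultured cells and 8.83, 8.92 and 8.82 in tissue. It fell in neurospheres (-1.58, SE 0.22, adjusted p = 0.000195) and in cultured cells (-0.86, SE 0.11, adjusted p = 3.74e-05). The dimmer 1447723_at fell by 2.10 in neurospheres (adjusted p = 0.000198) and fell by 1.18 in cultured cells (adjusted p = 1.75e-05).

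Other Ntrk3 probe sets were higher in the cultures than in nerve. Probe set 1422329_a_at was at 7.43, 8.23 and 7.85 in neurospheres, 8.84, 8.56 and 8.58 in cultured cells and 7.08, 6.96 and 7.06 in tissue, in separate steps. It rose 1.74-fold in neurospheres (0.80, SE 0.18, adjusted p = 0.00399) and 3.08-fold in cultured cells (1.62, SE 0.10, adjusted p = 2.16e-07). Probe set 1425071_s_at rose by 0.68 (adjusted p = 0.00565) and 1.36 (adjusted p = 1.11e-06). The dim 1425070_at rose by 1.16 in cultured cells (adjusted p = 6.09e-06), with 0.41 in neurospheres, under the fold threshold. Without neurosphere array 2, 1425071_s_at stood at 0.50 in neurospheres against tissue and was not called, and 1433825_at was called at -0.72 (adjusted p = 0.00275). The gap of 1422329_a_at from the other probe sets averaged 1.96 in neurospheres, 2.22 in cultured cells and 0.73 in tissue (exact permutation test, p = 0.00357, adjusted p = 0.0142).

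Between the cultures 6 of the 8 Ntrk3 probe sets were lower in neurospheres, by 0.68 to 0.93 on the log2 scale (adjusted p = 0.00240 to 0.0391), and none was higher, beside 9.62% of all probe sets called lower. The calls of 1422329_a_at (-0.82) and 1425070_at (-0.75) held with any 1 array left out, although 1425070_at was dim (mean 4.73 over the 9 arrays). Those of 1433825_at and 1455917_at were lost without any 1 array other than neurosphere array 2 (-0.48 to -0.81, adjusted p = 0.0651 to 0.121). That of 1447723_at was lost without neurosphere array 1 (-0.55) or any cultured cell array (-0.89 to -0.99), and that of 1425071_s_at without neurosphere array 1 (-0.55). The likewise dim 1443970_at and 1426003_at were not called in any comparison.

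**Figure D4:**
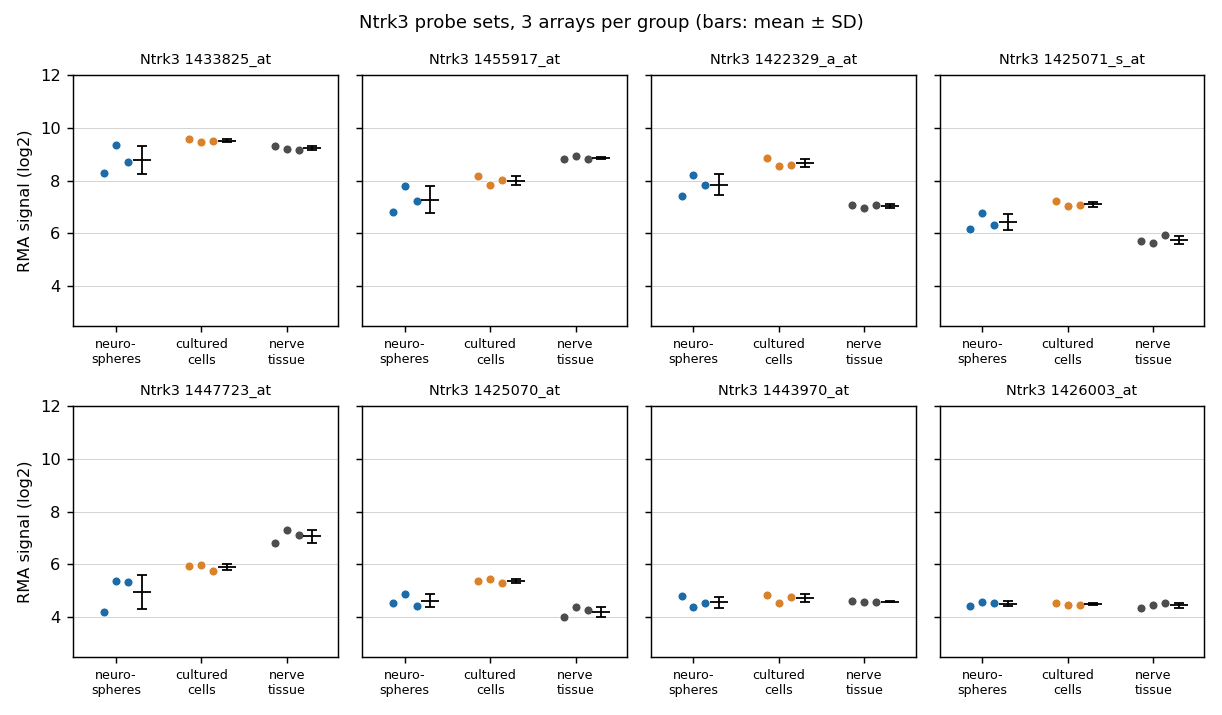
RMA signal (y axis, log2) of the 8 Ntrk3 probe sets on the 3 arrays of neurospheres, cultured cells and nerve tissue (x axis), with bars for the mean ± SD. Tissue is highest in 1455917_at (8.82 to 8.92) and lowest in 1422329_a_at (6.96 to 7.08), and neurospheres average below cultured cells in 6 of the panels by 0.68 or more.

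Neurosphere array 1, which was low in Xist (5.85), was the lowest of its group on all 11 Ntrk2 and Ntrk3 probe sets whose mean over the 9 arrays was not dim, 8 of which were also above the dim limit in neurospheres. The share of all probe sets on which it was lowest was not counted, and probe sets of 1 gene are not independent. Tissue array 2, also low in Xist (6.25), was the highest of its group on some of these, such as Ntrk2 1420838_at (9.49). It was the lowest on others, such as Ntrk2 1437560_at (9.94). Over the whole list of 7 Schwann cell and myelin genes neurosphere array 1 averaged 7.84, against 8.16 and 7.93 on neurosphere arrays 2 and 3, and it was the lowest for 3 of the 7 and the highest for 2. Over the 10 neuronal genes it averaged 6.53, against 6.50 and 6.63, and was the lowest for 4 and the highest for 4. Single markers went either way, with Sox10 at 7.11 against 7.78 and 7.60, S100b at 7.36 against 7.37 and 7.22, Snap25 at 8.58 against 7.21 and 7.55, and Nefl at 5.48 against 6.46 and 6.63. Cultured cell array 3 was the highest of its group on 3 of the 6 Ntrk2 probe sets and on 0 of the 5 Ntrk3 probe sets that were not dim, and averaged 8.17 over the Schwann cell and myelin genes, against 8.13 and 8.03. The part of sex and of these cells in the Trk values was not tested.

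Ngfr encodes p75, which marks Schwann cells that are immature or have lost their axons. Probe set 1454903_at was at 7.79, 8.28 and 7.90 in neurospheres, 6.75, 7.47 and 7.82 in cultured cells and 8.88, 9.69 and 9.56 in tissue. Both cultures lay below tissue without overlap, and they overlapped with each other. Ngfr fell in neurospheres (-1.38, SE 0.21, adjusted p = 0.000461) and in cultured cells (-2.03, SE 0.27, adjusted p = 6.64e-05). Neurospheres exceeded cultured cells by 0.65 (95% interval 0.07 to 1.22, adjusted p = 0.0869), which was not called. Without cultured cell array 3 that difference was 0.88 and was called (adjusted p = 0.0323). The other 2 Ngfr probe sets were dim, between 3.93 and 4.67 on all arrays, and were not called.

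Sort1 fell in neurospheres on all 3 of its probe sets. The brightest, 1423362_at, was at 9.11, 9.35 and 9.09 in neurospheres, 9.43, 9.18 and 9.40 in cultured cells and 10.58, 10.50 and 10.74 in tissue. Both cultures lay below tissue without overlap, with log2 fold changes of -1.42 in neurospheres (SE 0.11, adjusted p = 5.36e-06) and -1.27 in cultured cells (SE 0.11, adjusted p = 2.03e-06). Between the cultures the difference was -0.15 (95% interval -0.41 to 0.10, adjusted p = 0.350).

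Sort1 probe set 1423363_at fell by 0.76 in neurospheres (adjusted p = 0.000512), and 1450955_s_at fell by 1.10 (adjusted p = 0.000143). In cultured cells against tissue they stood at -0.58 (adjusted p = 0.00318) and -0.53 (adjusted p = 0.000312), both under the fold threshold. Without cultured cell array 2 or 3 or tissue array 1, 1423363_at was called there (-0.59 to -0.69). Between the cultures 1450955_s_at was at -0.57 (adjusted p = 0.0149), under the fold threshold, and was called without neurosphere array 2 (-0.71) or cultured cell array 2 (-0.59).

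**Figure D5:**
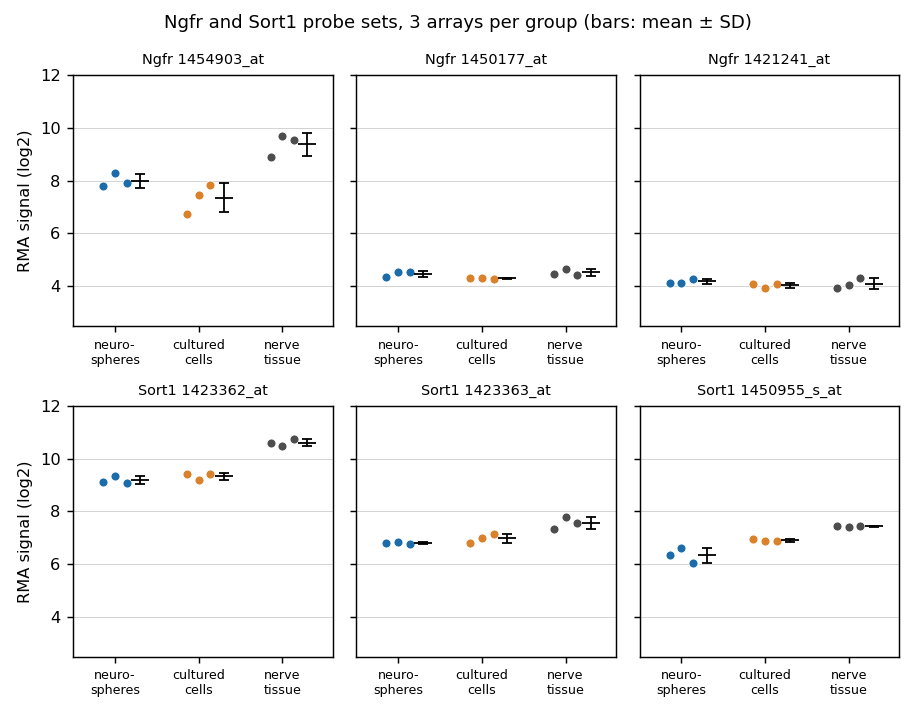
RMA signal (y axis, log2) of the 3 Ngfr and 3 Sort1 probe sets on the 3 arrays of neurospheres, cultured cells and nerve tissue (x axis), with bars for the mean ± SD. Ngfr 1454903_at and Sort1 1423362_at are highest in tissue, at 8.88 to 9.69 and 10.50 to 10.74, and the other 2 Ngfr probe sets stay at or below 4.67 on every array.

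Profiles over the 9 arrays nearest to the brightest probe set of the other genes were those of Mttp (0.09), Dcakd (0.11) and Tent2 (0.12) for Bdnf 1422169_a_at, and Glrx (0.14), Gmppb (0.15) and Zswim7 (0.15) for Ntf5. For Ngfr they were Abtb2, Araf and Sfi1, all at 0.26. For Ntrk3 1433825_at they were Notch3 (0.06), which encodes a Notch receptor, Ptpn14 (0.12) and Mbd6 (0.14), and for Sort1 Dennd4b (0.09), Bcl2l1 (0.10) and Fbxw7 (0.10).

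Genes around these receptors were read with 1 probe set each, the brightest. Of all probe sets, 39.7% were called in neurospheres against tissue, 40.5% in cultured cells against tissue and 17.1% between the cultures, which is the background for the counts of each list. Among 5 relatives of the ligands and receptors, 2 rose, 2 fell and 1 was not called in neurospheres against tissue (median log2 fold change 0.03), and 1 rose, 2 fell and 2 were not called in cultured cells against tissue (median -0.09). Between the cultures 1 was higher in neurospheres, 1 lower and 3 not called. Sorl1, a sorting receptor of the sortilin family, fell by 4.12 in neurospheres (adjusted p = 3.54e-09) and fell by 3.39 in cultured cells (adjusted p = 1.15e-09), and Sorcs3 of the same family had log2 fold changes of -1.84 and -1.88. Sorcs2, a family member that binds p75, was 1.71 higher in neurospheres than in tissue (adjusted p = 6.50e-07) and 1.77 higher than in cultured cells (adjusted p = 5.99e-05), with -0.06 between cultured cells and tissue. Nradd, a relative of p75 with a death domain, rose by 2.30 and 2.20 in the cultures.

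Of 19 adaptors and effectors of Trk receptors, 3 rose, 6 fell and 10 were not called in neurospheres against tissue (median -0.13, beside 0.06 for all probe sets), and 1 rose, 7 fell and 11 were not called in cultured cells against tissue (median -0.02, beside 0.02). Between the cultures 4 were higher in neurospheres, 1 lower and 14 not called. Gab2, a docking protein, was at 9.71, 9.73 and 9.92 in neurospheres, 7.38, 7.38 and 7.67 in cultured cells and 9.35, 9.35 and 9.27 in tissue. It was lower in cultured cells than in tissue (-1.85, adjusted p = 8.44e-08) and 2.31 higher in neurospheres than in cultured cells (adjusted p = 2.92e-06), with 0.46 in neurospheres against tissue, under the fold threshold.

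The adaptor gene Shc4 fell by 0.91 in neurospheres (adjusted p = 0.00107) and fell by 3.04 in cultured cells (adjusted p = 6.81e-08), and was 2.13 higher in neurospheres than in cultured cells (adjusted p = 2.64e-05). Shc1, of the same family, rose by 1.91 and 1.69 in the cultures. Kidins220, a scaffold and substrate of Trk receptors, fell by 1.53 in neurospheres and fell by 1.20 in cultured cells.

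Of 12 genes whose products act with p75, 1 rose, 2 fell and 9 were not called in neurospheres (median 0.05), and 3 rose, 2 fell and 7 were not called in cultured cells (median 0.07). Between the cultures 1 was lower in neurospheres and 11 were not called. The falls were those of Mag and Omg, which encode myelin proteins that bind the Nogo receptor. Mag had log2 fold changes of -4.56 in neurospheres and -4.44 in cultured cells, and Omg of -4.01 and -4.13. Aatf rose by 0.78 and 0.86, and Prdm4, a zinc finger protein that binds p75, rose by 0.82 in cultured cells (adjusted p = 7.43e-05), with 0.51 in neurospheres, under the fold threshold.

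Of 14 genes for the processing and sorting of neurotrophin precursors, 4 rose, 3 fell and 7 were not called in neurospheres (median 0.11), and 3 rose, 4 fell and 7 were not called in cultured cells (median -0.03). Between the cultures 5 were higher in neurospheres, none lower and 9 not called. Plau and Plat encode plasminogen activators, and plasmin cleaves the BDNF precursor. Plau rose by 4.80 in neurospheres (adjusted p = 5.42e-08) and 1.75 in cultured cells (adjusted p = 1.30e-05), and Plat by 2.14 and 0.76. Pcsk1, a prohormone convertase, was 1.95 higher in neurospheres than in tissue (adjusted p = 8.76e-05) and 2.37 higher than in cultured cells, with -0.43 in cultured cells against tissue, under the fold threshold. Cadps2, which acts in the release of dense-core vesicles, had log2 fold changes of -0.90 and -2.30 in the cultures.

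Of 8 genes for receptor cleavage and turnover, 3 rose and 5 were not called in neurospheres (median 0.47), and 4 rose, 1 fell and 3 were not called in cultured cells (median 0.28). Between the cultures 2 were higher in neurospheres and 6 were not called. Adam17, a protease that sheds p75, rose by 1.86 and 1.44, and Nedd4, a ubiquitin ligase, by 1.004 and 1.19. Ncstn, a subunit of gamma-secretase, rose by 1.08 in cultured cells (adjusted p = 1.60e-06), with 0.53 in neurospheres, under the fold threshold. Lrig1, which restrains receptor tyrosine kinases, was at 10.77, 11.34 and 11.12 in neurospheres, 7.69, 8.07 and 8.12 in cultured cells and 8.04, 8.53 and 8.60 in tissue. It was higher in neurospheres than in tissue by 2.69 (adjusted p = 2.21e-06) and than in cultured cells by 3.12 (adjusted p = 4.64e-06).

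Of 12 genes that neurotrophins induce in neurons, 6 rose, 2 fell and 4 were not called in neurospheres (median 0.91), and 8 rose, 2 fell and 2 were not called in cultured cells (median 0.98). Between the cultures 3 were higher in neurospheres, 4 lower and 5 not called. The immediate early genes Egr1 and Fos rose by 3.25 and 3.54 in neurospheres and by 3.90 and 4.77 in cultured cells. Dusp6, a phosphatase that acts on ERK, rose by 3.36 and 1.22. Scg2, the gene of a dense-core vesicle protein, fell by 0.96 in neurospheres (adjusted p = 0.000261) and fell by 2.46 in cultured cells (adjusted p = 7.06e-09).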

How the data were processed

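Arrays of 3 neurosphere, 3 cultured cell and 3 tissue samples were analyzed. The deposited log2 signals had been computed by the authors with RMA. The labels name Affymetrix Expression Console and MAS5 too, and give no versions. RMA scales all arrays to 1 distribution, so changes are relative; precision is limited by the number of arrays. Of the 45037 probe sets that were not controls, 34945 named 1 gene, 932 several and 9160 none.

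The members and lists were chosen with earlier results of these data known. The 6 arrays of each comparison were fitted in R 4.3.3 with limma 3.58.1 (eBayes, 2-sided), in place of the methods' t-test. Disagreement among probe sets of 1 gene was tested by exact permutation over 9 arrays and adjusted over all genes with several probe sets, not over the member list as first planned. Named genes were all member probe sets, up to 4 called genes per list with the largest change, and the 3 nearest profiles of the brightest probe set of each gene. Symbols came from the platform annotation. The tests were checked on simulated data. Alternatives were other scalings, filters, priors, tests, fold thresholds and gene summaries, a replicate block, and leaving out each array.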

Additional observations from a re-analysis of the deposited data

How the results depend on the processing

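No fold change of a member probe set reversed its sign when called. Of 1320 values under alternatives, 1234 kept their call or lack of one (uncalled values near 0 could change sign), 68 lost the call (50 of them between the cultures) and 18 gained one. Between neurospheres and cultured cells, 7 of the 25 probe sets were called with the methods' t-test, 4 with that test after adjustment, 4 at a fold over 2, and 8 to 11 with 1 array left out, against 12. The cause was not tested for the t-test. The counts with 1 array left out were 15 to 16 in neurospheres against tissue and 16 to 17 in cultured cells against tissue. Disagreement among probe sets was called for 13 with the dimmest 40% left out, which tests fewer, and for 17 to 21 with 1 array left out, against 20.

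The replicate block left the counts at 16, 16 and 12. Between the cultures it added Ngfr 1454903_at (adjusted p = 0.0444) and removed Ntrk3 1455917_at (adjusted p = 0.0675). Deviations of samples with the same number correlated weakly (r = -0.09 to -0.05, 0.06 to 0.19 and -0.13 to 0.03 in the 3 comparisons). In cultured cells against tissue these values were all positive, beside -0.14 to 0.07 for samples of different numbers. The numbers were not taken as pairs, because the methods' t-test is unpaired.

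Centring on hybridization controls moved the median of all probe sets by 0.22 in cultured cells against tissue and by -0.20 in neurospheres against cultured cells. The split of all calls was then 12739 higher and 6659 lower, against 9757 and 8497, and 2131 higher and 6767 lower, against 3352 and 4333. Centring on brighter probe sets moved the median by -0.13 in cultured cells against tissue, where Sort1 1423363_at and 1450955_s_at were then called lower (-0.71 and -0.66). The direction of Ntrk2 in neurospheres against tissue was 1.37 for its brightest probe set and -1.46 for the mean of its probe sets. Signal near background limits the 8 dim probe sets, and Ntrk2 1458622_at and 1435305_at in the cultures. It may also limit Bdnf 1422168_a_at in tissue, Ntrk3 1447723_at in neurospheres and Ntrk2 1446712_at in cultured cells, whose means there lay below 5.58.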
